A study of Mus musculus with 12 samples.

Results

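Tumors grown in Sirpα-KO mice were set against tumors grown in WT mice without irradiation (IR). The comparison took the 3 Sirpα-KO and the 3 WT samples labelled as not irradiated, paired by tumor model, which are 6 of the 12 samples of the series. The study treated MC38, Pan02 and KPC tumors in both genotypes with a single 8 Gy fraction, and these 6 samples are the arms that got none. The mice were C57BL6 animals of 6 to 8 weeks, and the label genotype is that of the host, in which the tumors were engrafted; the tumor cells themselves are not labelled as altered. MC38 is a line of colorectal adenocarcinoma, and Pan02 and KPC are models of pancreatic ductal adenocarcinoma. The study design gives tumor sizes of 250 to 300 mm3, and tumors were taken out at 12 h and 18 h on the clock of the irradiated ones, with the RNA of 4 mice pooled in each sample. A genotype was therefore 1 pooled sample in each tumor model and 12 mice in all, with no spread between mice to be had.

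SIRPα is an inhibitory receptor of macrophages, dendritic cells and neutrophils. It binds CD47 on neighbouring cells and, through its cytoplasmic tail, recruits the phosphatase SHP-1 (gene Ptpn6), which holds back phagocytosis. A mouse without the receptor has myeloid cells that lack this brake, and the question here was how the immune transcripts of a tumor in such a mouse differ from those in a WT mouse before any treatment. Sirpa itself was not analysed here.

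The nCounter Mouse Immunology Panel counted 561 genes in bulk tumor RNA, where fewer cells of a type and less RNA per cell cannot be told apart. Values are normalized counts, in which the 14 reference genes of the panel summed to the same total in every sample of a tumor model (58124 in MC38, 43973 in Pan02 and 25879 in KPC). Levels can therefore be compared between genotypes of 1 model and not between models. Net counts were 215423 (WT) and 159475 (Sirpα-KO) in MC38, 403385 and 79210 in Pan02, and 21576 and 12292 in KPC. The KPC pair is shallow. Its single count equals 3.79 normalized counts in WT and 6.48 in Sirpα-KO, its floor of 3 counts equals 11.4 and 19.5, and 176 and 267 of its genes stood at the minimum. Leukocyte RNA was present in all 6 tumors, with Ptprc (CD45) at 174 in WT and 165 in Sirpα-KO in MC38, 437 in WT and 269 in Sirpα-KO in Pan02 and 98.6 in WT and 104 in Sirpα-KO in KPC. The summed level of the 13 macrophage and monocyte markers measured was 3078 in Sirpα-KO against 3523 in WT in MC38, 3691 against 6161 in Pan02 and 1161 against 1331 in KPC.

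No gene passed the test across the 3 tumor models. With limma on log2(normalized count + 10), 12 samples in 4 groups and the tumor model as a block, 0 of 461 genes were higher (0%) and 0 were lower (0%) at a Benjamini-Hochberg adjusted p under 0.05. At an unadjusted p under 0.05 there were 1 higher gene, Cxcl12 (0.217%), and 11 lower ones (2.39%). edgeR on the recovered counts also called 0 genes, with 6 higher and 7 lower at an unadjusted p under 0.05. Without the non-irradiated KPC pair, limma again called 0 of 460 genes, with 5 higher and 12 lower at an unadjusted p under 0.05. Genes could still be ordered by how far and how regularly they differed. A gene was considered in a pair if its higher value reached 50, and every log2 ratio below is that of the normalized counts plus 10, which understates the differences of low genes. Of 248 genes considered in MC38 and in Pan02, 4 were at least 1.5-fold lower in Sirpα-KO in all 3 models (1.61%), Ctsc, Ccl5, Ccl12 and Traf2, and 1 was at least 1.5-fold higher (0.403%), Cxcl12. Without KPC these became 9 (3.63%) and 5 (2.02%). Among the 193 genes whose larger value reached 100 in both MC38 and Pan02, 7 were lower (3.63%), Ctsc, Vcam1, Ccl2, Relb, Ccl5, Ccl12 and Irf7, and 4 were higher (2.07%), Cxcl12, Serping1, Ptgs2 and Ccl8.

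Within a tumor model 1 sample stood against 1 sample, without any test. At least 2-fold higher in Sirpα-KO were 16 of 272 genes considered in MC38 (5.88%), 5 of 316 in Pan02 (1.58%) and 7 of 216 in KPC (3.24%). At least 2-fold lower were 9 in MC38 (3.31%), 30 in Pan02 (9.49%) and 13 in KPC (6.02%). In Pan02 higher genes were 14.3% of these calls, 27.6% after scaling by reference genes (8 higher, 21 lower) and 32.1% after scaling by the median ratio (9 and 19). In KPC they were 35% of calls and 25% after scaling by reference genes (11 and 33). Over all genes considered, the log2 ratio had a median of -0.07 in MC38, -0.33 in Pan02 and -0.12 in KPC, and scaling by reference genes put it at 0.06, -0.11 and -0.08 and the median ratio at -0.10, -0.05 and 0.04. By any amount, 155 of the 272 genes in MC38 were lower (57%) and 117 higher (43%), 239 of the 316 in Pan02 were lower (75.6%) and 77 higher (24.4%), and 121 of the 216 in KPC were lower (56%) and 95 higher (44%). In all 3 models at once 89 of 248 genes (35.9%) were lower and 21 (8.47%) higher. Scaling by reference genes made these 49 (22.1%) and 33 (14.9%) of 222 genes, and the median ratio 54 (21.7%) and 35 (14.1%) of 249.

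**Figure D1:**
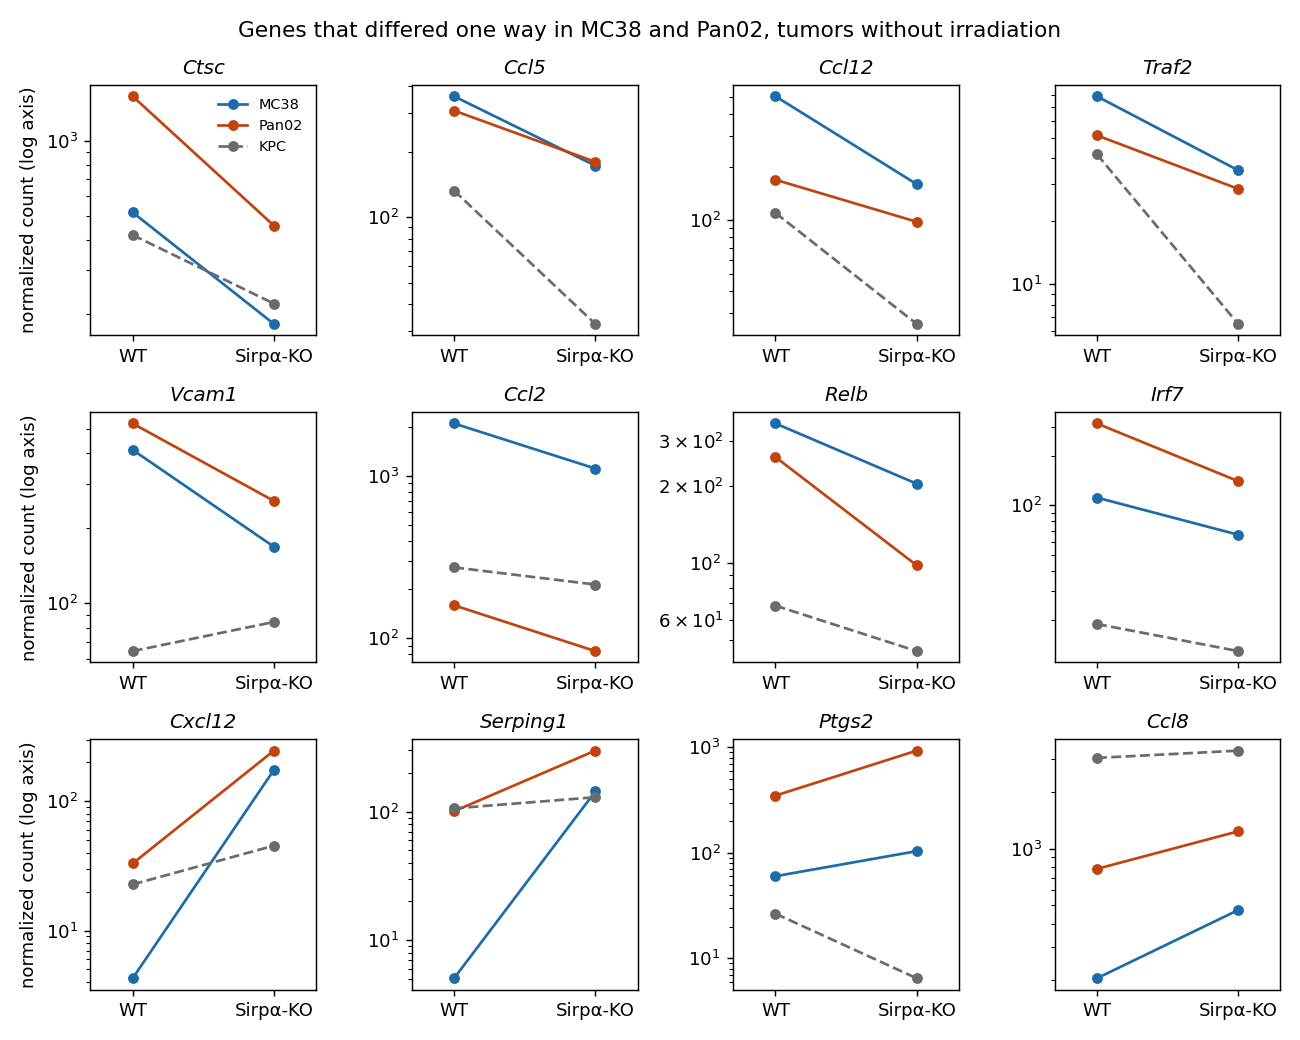
Normalized counts (log axis) of 12 genes that were at least 1.5-fold apart one way in all 3 tumor models or in MC38 and Pan02. Those apart only in MC38 and Pan02 had a larger value of at least 100 in both. Each point is 1 pooled sample and each line joins WT to Sirpα-KO of 1 tumor model, with KPC dashed because of its few counts; Ctsc, Ccl5, Ccl12 and Traf2 slope down in all 3 models, Cxcl12 slopes up in all 3, and Vcam1 and Ptgs2 turn the other way in KPC.

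Ctsc had the smallest adjusted p of the comparison. It encodes cathepsin C, the lysosomal dipeptidyl peptidase that activates granzymes and the serine proteases of neutrophils. Ctsc was at 515 in WT and 182 in Sirpα-KO in MC38, 1516 in WT and 455 in Sirpα-KO in Pan02 and 417 in WT and 220.5 in Sirpα-KO in KPC, so it was lower in Sirpα-KO in each model, by log2 ratios of -1.45 ± 0.23, -1.71 ± 0.21 and -0.89 ± 0.53 (95% interval of counting error alone). All 3 ratios lay farther from 0 than their counting error. In limma the difference was -1.35 (SE 0.29), adjusted p = 0.276. It passed when the 6 non-irradiated samples were fitted alone (-1.35, limma adjusted p = 0.0235, 345 genes tested), where it was the only gene to do so. Scaling by the geometric mean of the reference genes or by the median ratio left Ctsc as the single gene at least 1.5-fold lower in all 3 models.

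The 6 irradiated samples share no library with these pairs. There Ctsc was at 321 in WT and 157 in Sirpα-KO in MC38, 1159 in WT and 371 in Sirpα-KO in Pan02 and 652 in WT and 165 in Sirpα-KO in KPC, again lower in Sirpα-KO in each model. The difference after IR was -1.51 (SE 0.29, limma adjusted p = 0.00712), in a contrast where 3 of 461 genes were lower (0.651%) and 73 higher (15.8%). The test of the difference between the genotype effects with and without IR gave -0.16 for Ctsc (95% interval -1.05 to 0.73, limma adjusted p = 0.909), and 0 of 461 genes passed it (0%), with 74 at an unadjusted p under 0.05. Averaged over both states, a contrast added after Ctsc was seen, the genotype difference of Ctsc was -1.43 (SE 0.20, limma adjusted p = 0.00882), 1 of 2 genes called lower (0.434%), beside 28 called higher (6.07%). Those 28 became 0 without the non-irradiated KPC pair, without Pan02 or without KPC, and 1 without MC38. The other lower gene was Ccl12 (-1.17, adjusted p = 0.0277). Leaving out the Pan02 samples ended both calls (adjusted p = 0.433 for Ctsc and 0.511 for Ccl12 in limma over 363 genes), leaving out MC38 or KPC ended that of Ccl12 (0.153 and 0.25), and without the non-irradiated KPC pair Ctsc had 0.00706 and Ccl12 0.106. By any amount, 37 of 461 genes (8.03%) were lower in Sirpα-KO in all 6 pairs, with and without IR, and 52 (11.3%) were higher. The count of higher genes includes genes near the floor without IR. The lowest value of the library was larger in Sirpα-KO in each non-irradiated pair (1.08 against 1, 2.48 against 1 and 6.48 against 3.79). A gene at that value in both samples therefore counted as higher. Ccr3 was among the 52 with 1.61 against 1, 2.48 against 1 and 6.48 against 3.79 in MC38, Pan02 and KPC.

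**Figure D2:**
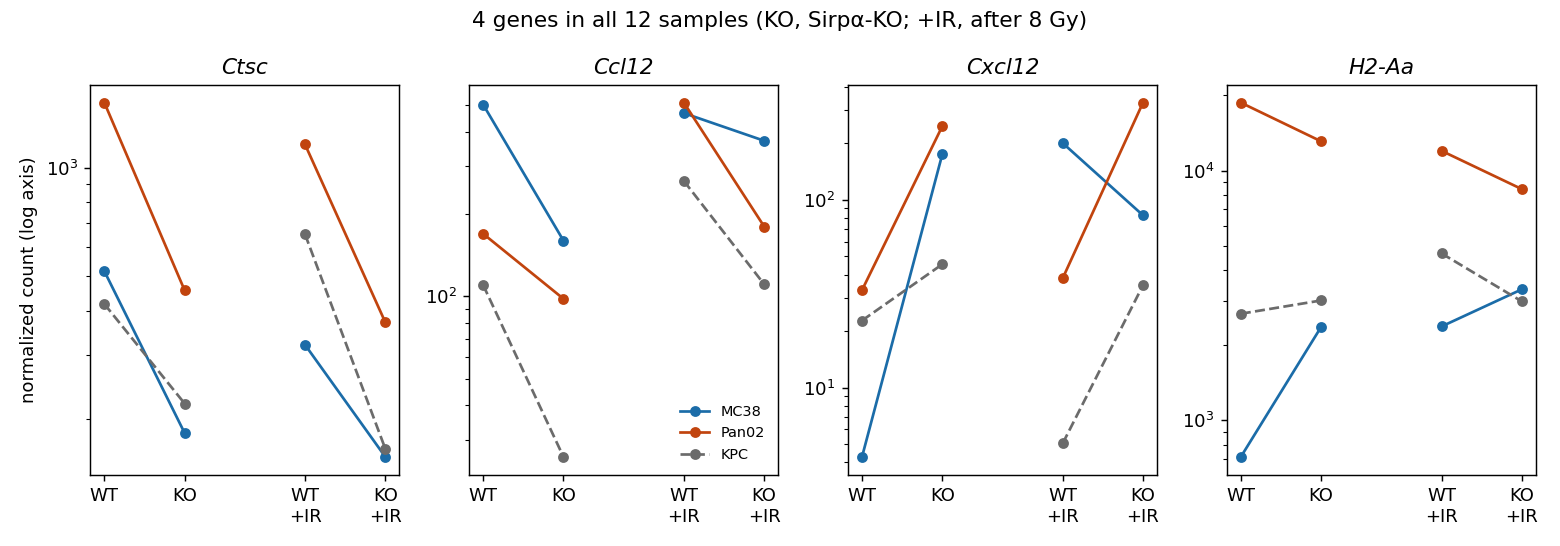
Normalized counts (log axis) of Ctsc, Ccl12, Cxcl12 and H2-Aa in all 12 samples, each point 1 pooled sample and each line 1 tumor model from WT to Sirpα-KO, without IR on the left of a panel and after 8 Gy on the right. The 6 lines of Ctsc and the 6 lines of Ccl12 all slope down, while Cxcl12 in MC38 turns from 175 against 4.27 without IR to 82.8 against 201 after it.

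Ccl12 and Ccl2, chemokines that draw monocytes, were lower in Sirpα-KO in all 3 models. Ccl12 (MCP-5, a mouse ligand of the monocyte receptor CCR2) was at 502 in WT and 159.9 in Sirpα-KO in MC38, 169 in WT and 98.0 in Sirpα-KO in Pan02 and 110.0 in WT and 25.9 in Sirpα-KO in KPC. Each Sirpα-KO value was below its WT partner by more than the counting error, with log2 ratios of -1.59 ± 0.24, -0.73 ± 0.44 and -1.74 ± 1.13 and a limma difference of -1.35 (SE 0.35), adjusted p = 0.484. Ccl2 (MCP-1, the main CCR2 ligand) was at 2108 in WT and 1112 in Sirpα-KO in MC38, 159 in WT and 83.1 in Sirpα-KO in Pan02 and 273 in WT and 214 in Sirpα-KO in KPC. The KPC ratio of -0.34 ± 0.57 did not exceed its counting error, and the limma difference was -0.71 (SE 0.50), adjusted p = 0.967. Ccr2 itself was at 125 against 204 in MC38, 90.6 against 113 in Pan02 and 77.8 against 87.2 in KPC (Sirpα-KO against WT). Ccl7, a further CCR2 ligand, was lower in MC38 (103 against 215) and Pan02 (45.9 against 63.7) and at 136 against 110.0 in KPC. Ccl8 (MCP-2) ran the other way, at 205 in WT and 472 in Sirpα-KO in MC38, 781 in WT and 1235 in Sirpα-KO in Pan02 and 3026 in WT and 3307 in Sirpα-KO in KPC, with log2 ratios of 1.16 ± 0.21, 0.65 ± 0.15 and 0.13 ± 0.16 (limma adjusted p = 0.967). The monocyte chemokine list of 6 genes also holds the receptor gene Ccr2 and the growth factor gene Csf1. In all 3 models 4 of the 6 were lower, Ccl2, Ccl12, Ccr2 and Csf1, and 1 was higher, Ccl8. None passed limma, and the median log2 ratio was -0.79 in MC38, -0.35 in Pan02 and -0.24 in KPC. The share lower in all 3 models was 66.7% beside 35.9% of all genes, 50% (3 genes) beside 22.1% with scaling by reference genes and 33.3% (2 genes) beside 21.7% with the median ratio. The Pan02 median became -0.15 (reference gene scaling) or -0.08 (median ratio scaling).

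Ccl5 (RANTES, a chemokine that draws T cells and monocytes) was at 359.7 in WT and 173 in Sirpα-KO in MC38, 309 in WT and 179.9 in Sirpα-KO in Pan02 and 133 in WT and 32.4 in Sirpα-KO in KPC. Its log2 ratios were -1.02 ± 0.25, -0.75 ± 0.34 and -1.75 ± 1.06, each beyond the counting error, and limma gave -1.17 (SE 0.56), adjusted p = 0.967. After IR Ccl5 was higher in Sirpα-KO in MC38 (1292 against 769) and Pan02 (250.1 against 182) and lower in KPC (60.3 against 239), and the difference between the effects was 0.96 (limma adjusted p = 0.651). Of the CXCR3 ligands, which draw activated T cells, Cxcl10 was lower in Sirpα-KO in each model, at 603 against 1109 in MC38, 207 against 290.3 in Pan02 and 6.48 against 37.9 in KPC, the last being the lowest value of that library. Its limma difference was -0.96 (SE 0.58), adjusted p = 0.967. Cxcl9 was instead higher in MC38 (469 against 206, log2 ratio 1.15 ± 0.21) and lower in Pan02 (1110.4 against 2116, -0.92 ± 0.14) and KPC (233 against 383, -0.69 ± 0.53).

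Most components of the NF-κB pathway were lower in Sirpα-KO by small amounts. Traf2, the adaptor that carries signals of TNF receptors to this pathway, was at 78.8 in WT and 35.0 in Sirpα-KO in MC38, 51.3 in WT and 28.5 in Sirpα-KO in Pan02 and 41.7 in WT and 6.48 in Sirpα-KO in KPC. These are low counts, the last at the lowest value of its library, and the log2 ratios were -0.98 ± 0.46, -0.67 ± 0.67 and -1.65 ± 1.31 with a limma difference of -1.10 (SE 0.31), adjusted p = 0.486. Relb, the transactivating subunit of the non-canonical pathway, was at 350.4 in WT and 204 in Sirpα-KO in MC38, 259 in WT and 98.0 in Sirpα-KO in Pan02 and 68.3 in WT and 45.4 in Sirpα-KO in KPC. In MC38 and Pan02 its log2 ratios of -0.75 ± 0.23 and -1.32 ± 0.43 exceeded the counting error and in KPC (-0.50 ± 1.05) it did not, and limma gave -0.86 (SE 0.31), adjusted p = 0.967. Of 11 genes of the NF-κB list considered, 7 were lower in all 3 models (63.6%, beside 35.9% of all genes), Relb, Nfkb1, Nfkb2, Rela, Nfkbia, Ikbke and Chuk, and 1, Ikbkb, was higher. With scaling by reference genes 5 of 9 were lower in all 3 (55.6%, beside 22.1%), and by the median ratio 7 of 11 (63.6%, beside 21.7%). No list member passed limma. Nfkbia, the inhibitor that NF-κB itself induces, was at 239.5 against 325 in MC38, 138 against 213 in Pan02 and 38.9 against 60.7 in KPC. The median of the list was -0.23 in MC38, -0.47 in Pan02 and -0.39 in KPC.

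Vcam1, the endothelial and stromal adhesion molecule for leukocyte integrin VLA-4, was at 411 in WT and 168 in Sirpα-KO in MC38, 524 in WT and 257 in Sirpα-KO in Pan02 and 64.5 in WT and 84.3 in Sirpα-KO in KPC. It was lower by more than the counting error in MC38 (log2 ratio -1.24 ± 0.24) and in Pan02, but not in KPC, and limma gave -0.63 (SE 0.41), adjusted p = 0.967. Cd34, which marks endothelium and progenitors, was at 681 against 1453 in MC38 and 371 against 289 in Pan02. Irf7, the interferon-induced factor that amplifies type I interferon, was at 111 in WT and 66.2 in Sirpα-KO in MC38, 314 in WT and 140.2 in Sirpα-KO in Pan02 and 19.0 in WT and 13.0 in Sirpα-KO in KPC with an adjusted p of 0.967 in limma. The 13 interferon-stimulated genes considered in Pan02 had a median of -0.43 there, with 3 of them at least 2-fold lower (9.49% of all genes were), beside -0.33 for all genes, and medians of -0.16 in MC38 and 0.03 in KPC. The Pan02 median became -0.21 (reference gene scaling) or -0.14 (median ratio scaling). Ifih1, which encodes the RNA sensor MDA5, was at 45.9 against 180.0 in Pan02 (Sirpα-KO against WT, log2 ratio -1.76 ± 0.56). In MC38 it was at 274 against 322.

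On the higher side Cxcl12 led. It encodes SDF-1, the CXCR4 ligand that stromal cells secrete. Cxcl12 was at 4.27 in WT and 175 in Sirpα-KO in MC38, 33.0 in WT and 247 in Sirpα-KO in Pan02 and 22.8 in WT and 45.4 in Sirpα-KO in KPC, with log2 ratios of 3.70 ± 0.42, 2.58 ± 0.40 and 0.76 ± 1.19. The MC38 and Pan02 ratios exceeded the counting error and the KPC ratio did not. limma gave 2.34 (SE 0.77), adjusted p = 0.967, 1.67 without MC38 and 3.14 without KPC. Serping1, the C1 inhibitor of the complement cascade, was at 5.04 in WT and 144 in Sirpα-KO in MC38, 101 in WT and 299 in Sirpα-KO in Pan02 and 106 in WT and 129.7 in Sirpα-KO in KPC, with log2 ratios of 3.35 ± 0.44, 1.48 ± 0.32 and 0.27 ± 0.76 (limma 1.70, adjusted p = 0.967, and 0.87 without MC38). Ptgs2, the inducible prostaglandin synthase COX-2, was at 60.1 in WT and 104 in Sirpα-KO in MC38, 349 in WT and 932 in Sirpα-KO in Pan02 and 26.6 in WT and 6.48 in Sirpα-KO in KPC. Its log2 ratios were 0.70 ± 0.38, 1.39 ± 0.18 and -1.15 ± 1.36, so the direction turned in KPC (limma adjusted p = 0.967).

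In MC38 several stromal and complement genes stood low in 1 library, the WT tumor without IR. Cxcl12 was at 4.27 there against 175 in Sirpα-KO without IR, 201 in WT after IR and 82.8 in Sirpα-KO after IR. Serping1 was at 5.04 in that library against 144, 366 and 101 in the same order. C2, an early component of the classical complement pathway, was at 3.49 against 51.1, 62.4 and 43.6. For all 3 genes the WT library without IR was the lowest of the 4 MC38 samples, and among the irradiated MC38 pair Sirpα-KO was the lower one. That library also stood low over the whole panel. It had 131 genes at its lowest value, against 72, 66 and 17 in the same order, and a median of 33.8 against 37.1, 66.9 and 76.5. How many of all genes were lowest there was not counted. C4a was at 110.3 against 26.0 in MC38, 800.3 against 1228 in Pan02 and 156 against 68.3 in KPC, higher in Sirpα-KO in MC38 and KPC and lower in Pan02. C4a has a near-identical copy, C4b, so that its probe may count both. The complement list had a median of 0.25 over 13 genes in MC38, -0.59 over 12 in Pan02 and 0.40 over 12 in KPC, beside -0.07, -0.33 and -0.12 for all genes. Scaling by reference genes gave 0.38, -0.37 and 0.45, and the median ratio 0.22, -0.30 and 0.57. None of its 16 genes tested passed limma.

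MHC class II genes went in opposite directions in MC38 and Pan02. These genes encode the molecules that present peptides to CD4+ T cells, and they are switched on together by the coactivator CIITA acting at a shared promoter module, of which the Y box is 1 element. Of the 10 class II genes measured, a list that also holds Cd74 and the protease gene Ctss, 6 had an entry in the RefSeq promoter table. Of those, 2 held the Y box letters CTGATTGG, searched on both strands, in the 250 bases before the start. The letters are in 3.83% of the 32851 promoters of that length in the table. The 250 bases of both genes are shown (GRCm38.p6, gene strand, Y box in capitals), since H2-Aa and H2-Eb1 are among the members that the contrast turns on, with H2-Aa at chr17:34287824-34288073 on the minus strand and H2-Eb1 at chr17:34305617-34305866 on the plus strand.
H2-Aa: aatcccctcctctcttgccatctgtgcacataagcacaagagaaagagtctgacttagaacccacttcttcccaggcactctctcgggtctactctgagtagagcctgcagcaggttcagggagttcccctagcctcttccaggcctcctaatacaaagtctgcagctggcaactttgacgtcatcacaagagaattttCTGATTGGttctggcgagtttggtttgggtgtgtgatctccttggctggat
H2-Eb1: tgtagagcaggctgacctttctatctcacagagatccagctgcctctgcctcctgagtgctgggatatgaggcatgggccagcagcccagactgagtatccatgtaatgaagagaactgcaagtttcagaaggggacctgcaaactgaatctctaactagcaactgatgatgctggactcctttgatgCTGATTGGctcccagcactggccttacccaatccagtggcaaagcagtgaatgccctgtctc
The capitals begin 51 bases before the start in H2-Aa and 62 in H2-Eb1. A match of letters is a description and no measurement of binding.

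H2-Aa, the class II alpha chain, was at 714 in WT and 2367 in Sirpα-KO in MC38, 18720.5 in WT and 13103 in Sirpα-KO in Pan02 and 2674 in WT and 3022 in Sirpα-KO in KPC. It was higher in MC38 (log2 ratio 1.71 ± 0.11), lower in Pan02 (-0.51 ± 0.04) and little apart in KPC (0.18 ± 0.17). H2-Eb1, a class II beta chain, was at 129 in WT and 304 in Sirpα-KO in MC38, 2437 in WT and 1197 in Sirpα-KO in Pan02 and 299.6 in WT and 188 in Sirpα-KO in KPC, with log2 ratios of 1.17 ± 0.26, -1.02 ± 0.13 and -0.64 ± 0.59. H2-Ab1, another class II beta chain, was at 1428 against 558 in MC38, 4009 against 6882 in Pan02 and 700.3 against 868 in KPC. Cd74, the invariant chain that escorts class II molecules, was at 2405 against 979, 8118 against 14080.5 and 1349 against 1319.8. Ciita was at 37.1 against 15.9 in MC38, 189.8 against 244 in Pan02 and 19.4 against 37.9 in KPC, low counts in the first and the last. In MC38 all 6 class II genes considered were higher in Sirpα-KO, 4 of them by at least 2-fold, with a median of 1.23, where 43% of all genes were higher. In Pan02 all 8 considered were lower, 1 by at least 2-fold, with a median of -0.58, where 75.6% of all genes were lower. In KPC 4 of 6 were higher, beside 44% of all genes, with a median of 0.03. Scaling by reference genes gave medians of 1.35, -0.36 and 0.08, and the median ratio 1.20, -0.30 and 0.20. Across models none of the 8 genes tested passed limma (adjusted p = 0.967 for H2-Aa). With 1 sample on each side, the difference between MC38 and Pan02 could not be tested.

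For H2-Aa too the WT MC38 tumor without IR was the lowest of the 4 MC38 libraries, at 714 against 2367 in Sirpα-KO without IR, 2378 in WT after IR and 3348 in Sirpα-KO after IR. In Pan02 the lower value of Sirpα-KO recurred after IR, at 8435 against 12006, and in KPC it was 2996 against 4663 there. Of all 248 genes considered in both models, 9 (3.63%) were at least 1.5-fold higher in MC38 and 1.5-fold lower in Pan02, and 2 (0.806%) the reverse. Over the same 248 genes the MC38 and Pan02 ratios had a Pearson r of 0.30 and a Spearman rho of 0.20, a description across genes, which are not independent replicates and share the scaling of each library.

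**Figure D3:**
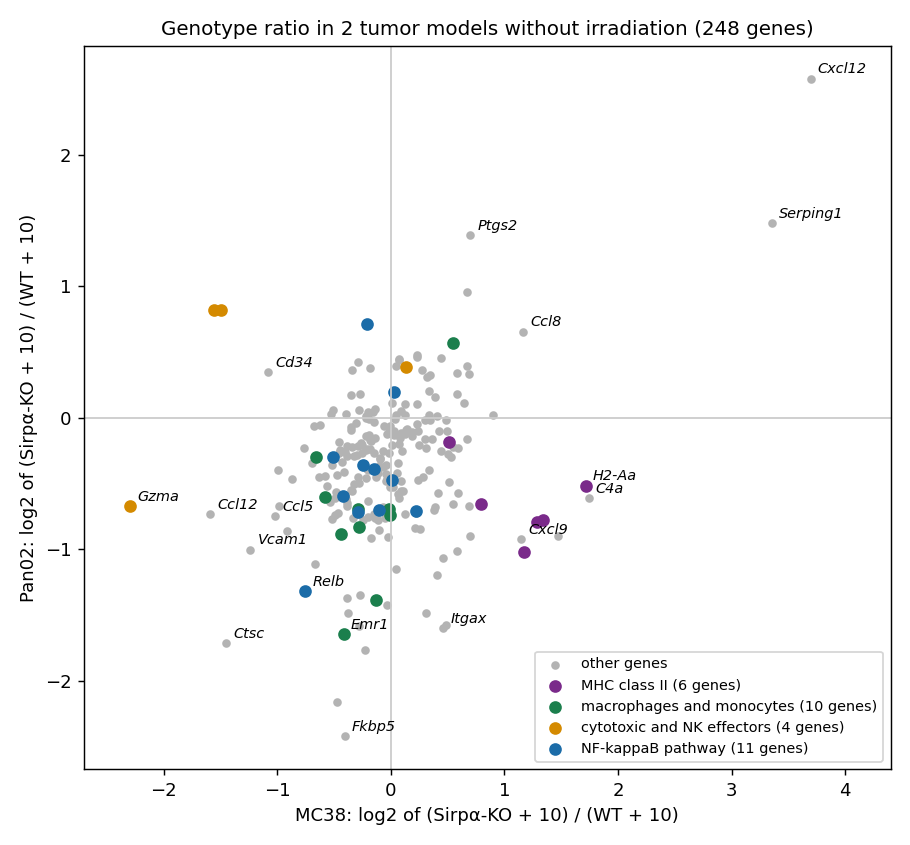
Log2 ratio of Sirpα-KO over WT (normalized count + 10) in MC38 (x axis) against that in Pan02 (y axis) for the 248 genes considered in both, without IR, 1 point per gene. MHC class II genes lie to the lower right, higher in MC38 and lower in Pan02, and most genes of any kind lie below 0 in Pan02. Cxcl12 and Serping1 lie farthest out at the upper right, where 33 of the 248 genes lie, Ptgs2 and Ccl8 among them.

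Some myeloid genes were at least 2-fold lower in Sirpα-KO in Pan02, while the macrophage list as a whole was lower in that model as often as all genes were. Emr1, which encodes the macrophage antigen F4/80, was at 482 in WT and 148 in Sirpα-KO in Pan02, 185 in WT and 136 in Sirpα-KO in MC38 and 60.7 in WT and 77.8 in Sirpα-KO in KPC. The Pan02 log2 ratio of -1.64 ± 0.36 had an interval apart from those in MC38 (-0.42 ± 0.29) and KPC (0.31 ± 0.94). Itgax (CD11c, of dendritic cells and macrophages) was at 105 against 339 in Pan02, 86.7 against 60.1 in MC38 and 13.0 against 19.0 in KPC. Cybb, the catalytic subunit of the phagocyte oxidase, was at 212 against 654, 163 against 199.8 and 45.4 against 37.9 in the same order. Ly86 (MD-1, of the RP105 complex of myeloid and B cells) was at 182 against 491 in Pan02 and 157 against 173 in MC38. Itgam (CD11b) was lower in each model, at 71.6 against 96.6 in MC38, 58.3 against 166 in Pan02 and 6.48 against 41.7 in KPC. Of 12 macrophage and monocyte markers considered in Pan02, 9 were lower, beside 75.6% of all genes. At least 2-fold lower were 2 of them, beside 9.49% of all genes, and the median was -0.69, beside -0.33. In MC38 9 of 10 were lower, beside 57% of all genes, with a median of -0.28 and none by 2-fold. In KPC 5 of 10 were lower, beside 56% of all genes, with a median of -0.04. In all 3 models 5 of 10 were lower (50%, beside 35.9% of all genes) and 1 was higher. With scaling by reference genes 40% were lower in all 3 models, beside 22.1%, and by the median ratio 40%, beside 21.7%. Scaling by reference genes moved the Pan02 median to -0.47, the median ratio moved it to -0.40 and turned the KPC median to 0.12, and none of the 12 genes tested passed limma. The 3 dendritic cell markers considered in Pan02, Cd83, Itgax and Irf8, were all at least 2-fold lower, beside 9.49% of all genes. In MC38 the 2 considered were both higher, beside 43% of all genes, with a median of 0.52. In KPC the 1 considered was lower (-1.14). Ptprc was lower in Pan02 as well (269 against 437, log2 ratio -0.68 ± 0.28), as was the median of all genes considered (-0.33). The Sirpα-KO library of Pan02 also had the fewer counts. The part of each in the Pan02 differences was not tested.

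Cd163, a scavenger receptor of macrophages, ran against this, at 63.3 against 5.31 in Pan02 and 15.6 against 4.27 in MC38, and at 64.8 against 106 in KPC. Cd14, the lipopolysaccharide co-receptor of monocytes, was higher in each model, at 120.0 against 78.8, 172 against 113 and 77.8 against 60.7 in MC38, Pan02 and KPC. S100a8, a calcium-binding protein of neutrophils and monocytes, was at 907 against 526 in Pan02 (log2 ratio 0.78 ± 0.17), 27.4 against 17.5 in MC38 and 38.9 against 19.0 in KPC. The summed level of the 9 neutrophil markers was 1721 against 1158 in Pan02, 95.3 against 44.9 in MC38 and 143 against 155 in KPC. Of 3 considered in Pan02, 2 were higher and 1 was lower, where 24.4% of all genes were higher. The 1 considered in KPC was lower (log2 ratio -0.87), and none was considered in MC38.

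Of the partners of SIRPα, Ptpn6 was at 153 in WT and 162 in Sirpα-KO in MC38, 342 in WT and 297 in Sirpα-KO in Pan02 and 56.9 in WT and 25.9 in Sirpα-KO in KPC. Its Pan02 ratio was above 0 under both other scalings, none of the 3 ratios exceeded its counting error (0.08 ± 0.29, -0.20 ± 0.28 and -0.90 ± 1.19), and the limma difference was -0.34 (SE 0.38) with a 95% interval of -1.18 to 0.50. Tyrobp (DAP12, the activating adaptor of myeloid receptors) was at 458 against 469.9 in MC38, 957 against 1327 in Pan02 and 285 against 281 in KPC, with its MC38 ratio above 0 under scaling by reference genes and a limma difference of -0.16 (SE 0.31). C1qa, a chain of the complement opsonin C1q, which macrophages make, was lower in each model, at 789 against 967 in MC38, 733 against 1190.1 in Pan02 and 149 against 228 in KPC. Fcgr1, the high-affinity Fc receptor through which macrophages take up antibody-coated cells, was at 194 against 295, 247 against 379 and 19.4 against 75.8 in that order, lower in Sirpα-KO in each. Fcer1g, its signalling chain, was at 217 against 310.0, 289 against 447 and 58.4 against 72.1. All 13 phagocytosis genes considered were lower in Pan02, 2 of them by at least 2-fold, against 8 of 14 in MC38 and 5 of 10 in KPC. Of all genes 75.6%, 57% and 56% were lower in these models, and 9.49% were at least 2-fold lower in Pan02. The medians of this list were -0.48 in Pan02, -0.08 in MC38 and -0.05 in KPC, of which that of Pan02 was -0.26 (reference gene scaling) or -0.19 (median ratio scaling). That of MC38 was 0.05 with scaling by reference genes and that of KPC 0.11 with the median ratio. None of its 14 genes tested passed limma.

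Cytotoxic effector genes were lower in Sirpα-KO in MC38. Gzma, a granule protease of cytotoxic T and NK cells, was at 163 in WT and 25.3 in Sirpα-KO in MC38, 51.3 in WT and 28.5 in Sirpα-KO in Pan02 and 159 in WT and 136 in Sirpα-KO in KPC. Its log2 ratio of -2.30 ± 0.46 was the lowest of all genes in MC38. Gzmb was at 28.5 against 104 in MC38, 113 against 59.6 in Pan02 and 123 against 106 in KPC. Prf1 (perforin) was at 21.0 against 77.2, 68.2 against 34.2 and 58.4 against 49.3 in the same order, and Xcl1, a chemokine that these cells release, at 30.7 against 92.0, 16.1 against 37.2 and 6.48 against 3.79. In MC38 5 of 6 cytotoxic genes considered were lower, 4 by at least 2-fold, with a median of -1.41, where 57% of all genes were lower and 3.31% by at least 2-fold. In Pan02 4 of 6 were higher, beside 24.4% of all genes, with a median of 0.50. In KPC 5 of 6 were higher, beside 44% of all genes, with a median of 0.23. No member passed limma. T-cell markers were low in MC38, where Cd3d was at 25.3 against 16.7 and Cd3e at 18.8 against 5.82, both too low to be considered. The 16 T-cell markers summed to 238 against 184 there. The 1 T-cell gene considered in MC38, Tcf7, was lower in Sirpα-KO, at 36.1 against 68.7 (log2 ratio -0.77 ± 0.46). In Pan02 6 of 7 T-cell genes considered were higher, beside 24.4% of all genes, with a median of 0.40 and none by 2-fold.

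**Figure D4:**
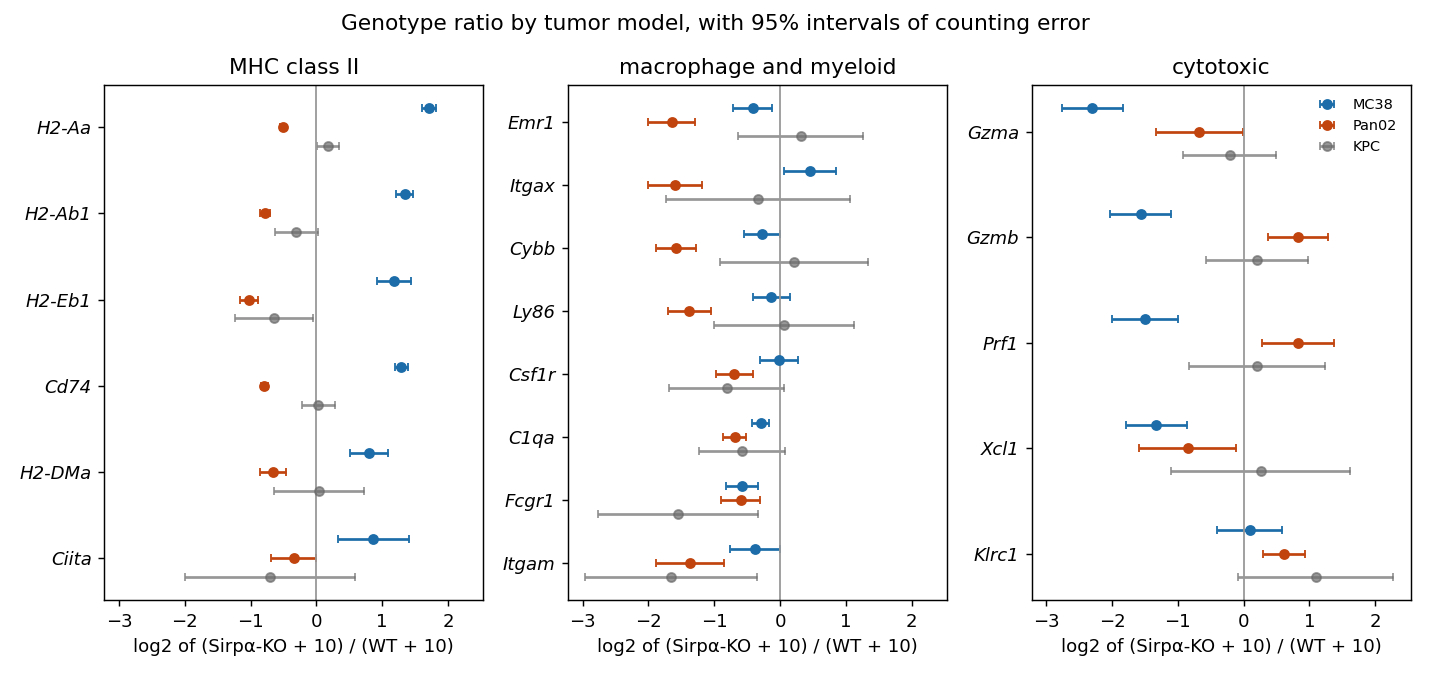
Log2 ratio of Sirpα-KO over WT (normalized count + 10) for MHC class II, macrophage and myeloid, and cytotoxic genes in MC38, Pan02 and KPC without IR, 1 point per gene and model. Bars are 95% intervals of counting error and leave out the spread between mice; class II points of MC38 and Pan02 lie on opposite sides of 0, myeloid points of Pan02 lie lowest for Emr1, Itgax, Cybb and Ly86, and KPC bars are wide.

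Other single genes were at least 2-fold apart in a model. MC38 had Prdm1, the repressor Blimp-1 of late lymphocyte differentiation, at 115 against 40.0. The lowest ratio in Pan02 was that of Fkbp5, a glucocorticoid-induced co-chaperone of steroid receptors, at 53.4 against 329 (log2 ratio -2.42 ± 0.53), next to 149 against 201 in MC38. Ebi3, a subunit of IL-27, was at 18.6 against 109 in Pan02, Tap1, the transporter that loads MHC class I, at 314 against 857 and Cxcr4, the receptor of CXCL12, at 48.4 against 164. Lair1, an inhibitory collagen receptor of leukocytes, was at 80.7 against 243. In MC38 Tap1 was at 679.9 against 698. In KPC Cebpb, a transcription factor of myeloid cells, was at 51.9 against 118, Cd82, a tetraspanin, at 58.4 against 144 and Il12a, the p35 subunit of IL-12, at 239.9 against 114. Il12a was also higher in Pan02 (50.9 against 11.8) and at 12.4 against 28.3 in MC38. Cd82 was also lower in MC38 (390.3 against 564) and Pan02 (187 against 327).

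A few cytokine genes were higher in Sirpα-KO in all 3 models. Il1rn, the antagonist of the IL-1 receptor, was at 64.0 in WT and 109 in Sirpα-KO in MC38, 225 in WT and 287 in Sirpα-KO in Pan02 and 15.2 in WT and 58.4 in Sirpα-KO in KPC. Il33, an alarmin of the IL-1 family, was at 107 against 89.6, 356 against 255 and 681 against 375, and Il17a at 66.2 against 5.82, 38.5 against 4.13 and 195 against 125. Neither passed limma, nor did Il1rn (adjusted p = 0.967, 0.967 and 0.967 for Il1rn, Il33 and Il17a). Tgfb1, the main TGF-β isoform, was at 415 against 485 in MC38, 344 against 379 in Pan02 and 162 against 220.0 in KPC, but its Pan02 ratio was above 0 under both other scalings. Its limma difference was -0.26 (SE 0.23) with a 95% interval of -0.76 to 0.25.

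**Figure D5:**
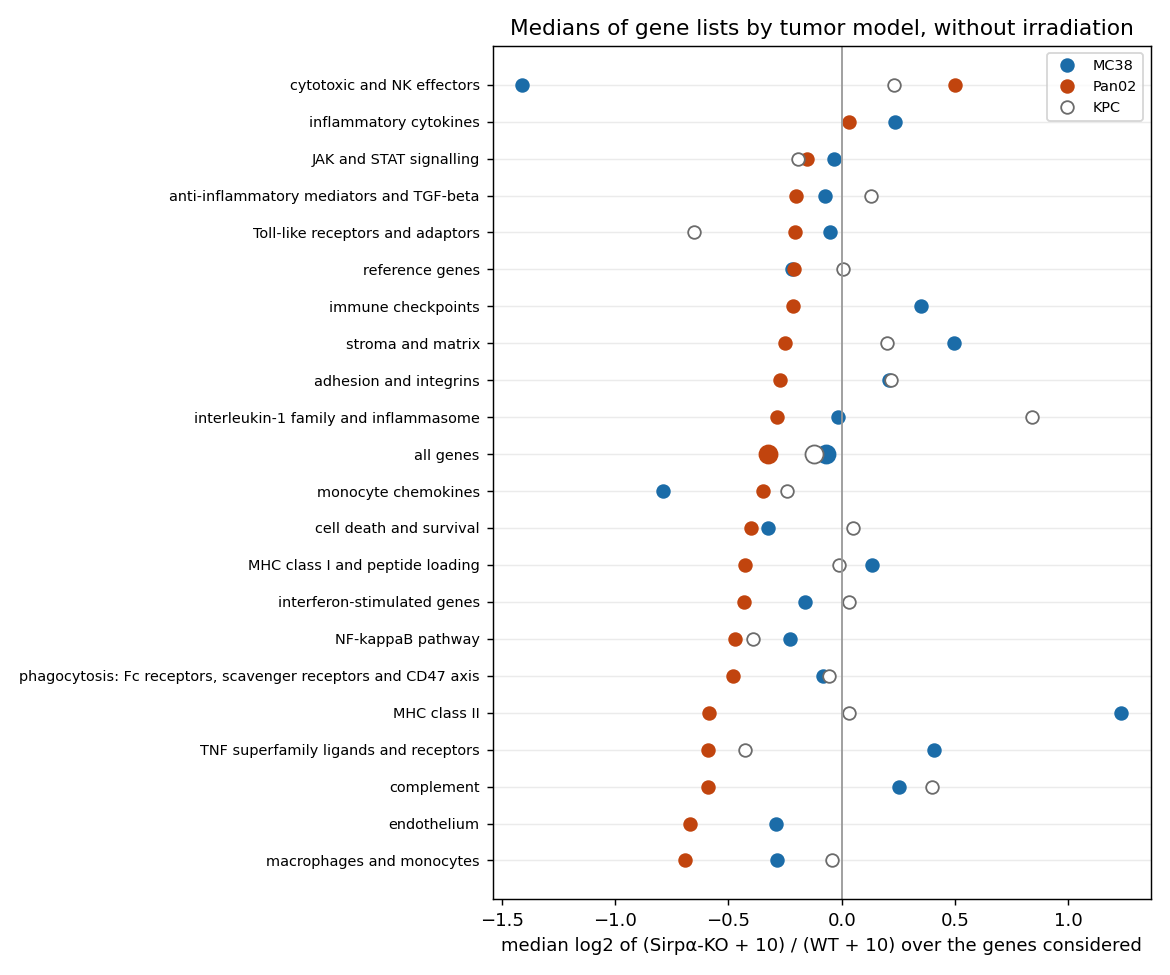
Median log2 ratio of Sirpα-KO over WT (normalized count + 10) for each gene list with at least 3 genes considered in MC38 and in Pan02, without IR, and for all genes (large points), 1 point per tumor model. Cytotoxic effectors lie lowest and MHC class II highest in MC38, macrophage markers lie lowest in Pan02, and KPC has a point only where at least 3 genes were considered.

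In the remaining lists no member passed limma. All 6 MHC class I and peptide loading genes considered in Pan02 were lower in Sirpα-KO, beside 75.6% of all genes. Their median there was -0.43, -0.21 (reference gene scaling) or -0.14 (median ratio scaling), and that in MC38 was 0.13. Psmb10, a subunit of the immunoproteasome, was at 227 against 321 in MC38, 175 against 263 in Pan02 and 117 against 125 in KPC. Among adhesion genes, 4 of 12 considered in Pan02 were at least 2-fold lower, beside 9.49% of all genes. The Pan02 median of this list was -0.27, -0.06 (reference gene scaling) or 0.004 (median ratio scaling). Of the 4, Itgal, the alpha chain of the leukocyte integrin LFA-1, was at 98.0 against 216. It was at 58.7 against 40.0 in MC38, the other way. Of 12 cell death genes considered in Pan02, 11 were lower, beside 75.6% of all genes, among them the death receptor Fas at 43.4 against 129 and the DNA damage kinase Atm at 21.1 against 76.7. The Pan02 median of this list was -0.40, -0.18 (reference gene scaling) or -0.11 (median ratio scaling), that of MC38 -0.32 and that of KPC 0.05. Tnfrsf14 (HVEM, a receptor of the TNF family) was lower in each model, at 64.1 against 88.1, 150.1 against 231 and 38.9 against 83.4 in MC38, Pan02 and KPC, and Tnfsf13b (BAFF, a survival factor of B cells) higher, at 87.7 against 50.1, 45.9 against 31.9 and 38.9 against 26.6. Tgfbi, a matrix protein that TGF-β induces, was at 788 against 889.8, 622 against 1178 and 292 against 470.3 in the same order. Of the checkpoint genes, Pdcd1 (PD-1) was at 11.3 against 8.92, 63.3 against 74.9 and 6.48 against 15.2. Of the interferon genes, Ifna1 was at 56.5 in Sirpα-KO and at the lowest value of the library in WT in MC38, and at most at 6.48 in the Pan02 and KPC samples. Interferon alpha genes are near-identical copies, so the probe may count several of them. The summed level of the B-cell list lay between 53.1 and 172 over the 6 samples, that of mast cells, basophils and eosinophils was at most 44.7 and that of platelets and erythroid cells at most 60.7.

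The reference genes bear on all of these ratios, since the values were scaled to their sum. Gapdh, Rpl19 and Ppia made up 80.4% to 85.5% of that sum in the 6 samples. Gapdh was higher in Sirpα-KO in each model, at 24184 against 19428 in MC38, 21012 against 16948 in Pan02 and 13462 against 12185 in KPC, and Rpl19 and Ppia were lower in each. Of the 13 reference genes considered in MC38 and Pan02, 6 were lower and 3 higher in all 3 models and none that was considered in a model differed by 2-fold there. Their geometric mean was 824 against 909 in MC38, 625 against 732 in Pan02 and 335 against 346 in KPC.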

How the data were processed

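The nCounter assay counts barcoded probes bound to RNA, without amplification, here for the genes of the Mouse Immunology Panel. The authors deposited 1 table of signal values, normalized counts, made with nSolver 2.6 per the labels; their methods name the deduction of negative controls and a factor from positive controls. The 14 control probes (8 negative, 6 positive) were dropped here. The deposited values also had reference gene sums that were the same within each tumor model, a step the methods do not name, so levels were compared only within a model. Net counts were recovered from the step of each library. Without IR they were whole counts in Pan02 WT and in both KPC samples. In both MC38 samples and in Pan02 Sirpα-KO they lay midway between whole counts, and they were rounded for edgeR. Intervals and floors (3 counts) cover counting error only.

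Groups came from the labels. limma 3.58.1 (R 4.3.3, eBayes with trend) was fitted to log2(normalized count + 10) of genes that reached 50 in any of the 12 samples, with 4 groups and the tumor model as a block, the p-values being adjusted by Benjamini-Hochberg over all genes tested. The label names the tumor model in both genotypes, and paired samples deviated together from their group means (correlations 0.80 to 0.82 over 461 genes), so the models pair the samples. Each sample pools mice and each group has 3 samples of different models. The p-values rest on the spread of all 12 samples about shared group differences and model levels. That spread includes IR effects that differ between models. It is neither the spread of the 3 non-irradiated pairs alone nor that between mice. For Ccl8 the SE was 1.04 in this fit and 0.20 with the 6 non-irradiated samples alone. Within a model no test was possible. The fit was tested on simulated data. edgeR 4.0.16 on recovered counts, the interaction alternatives and the contrasts after IR and averaged over IR were chosen after seeing the data. Plots and sequence searches used Python 3.11.15 and matplotlib 3.10.9, with promoters from RefSeq (GRCm38.p6).

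The comparison, its members and the gene lists were chosen with earlier results of these data known. Genes were named if they were at least 1.5-fold apart one way in all 3 models (or in MC38 and Pan02 with a larger value of at least 100 in both), among the 10 largest 2-fold differences each way in MC38 and Pan02 or the 5 in KPC with a larger value of at least 100, among the 4 members of a list with the largest mean difference, reference genes, or Ptpn6 and Tyrobp. Ccr2, Cd14, Ciita, Ly86, Prf1, Ptprc, and the members Chuk, Csf1, Ctss, Ikbkb, Nfkb1, Nfkb2 and Rela of counted lists were named after their values were seen. Sirpa, Cd47 and Mrc1 were not analysed here.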

Additional observations from a re-analysis of the deposited data

How the results depend on the processing

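The count of genes called by limma was 0 in each direction under both other scalings, pseudocounts of 1 and 30, no filter and a filter at 100, without limma's trend, without each tumor model in turn (lowest and highest count 0), without the non-irradiated KPC pair and under the methods' t-test. The exception was the fit of the 6 non-irradiated samples alone, with 1 lower gene, Ctsc, of 345. Without the replicate block, that is without the pairing by tumor model, 0 genes were called in each direction (1 higher and 0 lower at an unadjusted p under 0.05, smallest adjusted p 0.997). edgeR, chosen after seeing the data, called 0 genes with and without the KPC pair. The adjusted p of Ctsc was 0.0235 in the fit of the 6 samples and 0.168 without the KPC pair, while without MC38 or without Pan02 no gene had an adjusted p below 0.969.

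Counts within a model moved more. The 2-fold higher genes in MC38 became 10 with the larger value at 100 or more. In Pan02 the 5 higher genes became 8 with scaling by reference genes, 9 by the median ratio, 3 with the larger value at 100 or more and 17 without a filter, and the 30 lower ones became 19 by the median ratio. In KPC the 7 higher genes became 11, 18, 2 and 15 in the same order and 1 with a pseudocount of 30, and the 13 lower ones became 33, 31, 4 and 37 in that order. Genes 1.5-fold higher in all 3 models numbered 2 by the median ratio, 0 with a pseudocount of 30 and 5 without KPC. Genes 1.5-fold lower numbered 1 with each scaling and 9 without KPC. The limma difference of Ptgs2 lay between -0.22 without Pan02, where Ptgs2 was far higher in Sirpα-KO, and 1.04 without KPC. The cause of the other changes was not tested.

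Depth limits KPC most, where 1 count in the Sirpα-KO library was worth 6.48 normalized counts and 168 genes sat at the lowest value in both samples. Such a gene had a log2 ratio of 0.26 in KPC and so counted as higher there.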
